A study of Homo sapiens with 8 samples.

Results

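Melanoma cells given the conserved region of the long noncoding RNA SLNCR1 by itself were compared with cells given the empty plasmid. The cells were A375, an established human malignant melanoma line with an activated BRAF kinase. They were kept in DMEM with 10% fetal bovine serum and transfected 24 h after seeding with pcDNA3.1(-), a plasmid with a strong viral promoter, by Lipofectamine 2000. RNA was taken 48 h after transfection. All 4 groups of the study went through these steps: pcDNA3.1(-) without insert (vector), with SLNCR1, with SLNCR1 delta conserved (the transcript without its conserved region) and with SLNCR1 conserved (that region only). Each group had 2 libraries, so the comparison rests on 4 of the 8 libraries. The transfection was transient, and the labels do not say whether replicates were separate cultures. The p-values below measure only the spread between these libraries, which may be technical.

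Genes were ranked by the log2 ratio of the conserved-region mean to the vector mean, taken from the group means in the authors' deposited table. A gene entered the ranking if the average of its group means was at least 50 normalized counts, that is, reads divided by a size factor for library depth. This left 12708 of 56638 entries, or 22.4%. The threshold fell between RP11-84C13.1, with a mean of 49.986 and a log2 of -0.04, and RP11-433P17.3, with a mean of 50.070 and a log2 of -0.35.

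As background, SLNCR1 is a long noncoding RNA that was linked to melanoma invasion. It was reported to act with the androgen receptor and the brain-type POU factor POU4F1 on the gene of the metalloproteinase MMP9, through a short conserved stretch. Of the 6 entries past the authors' test, 5 belong to the interferon response. In that response, sensors such as RIG-I and MDA5 recognise double-stranded or uncapped RNA in the cytoplasm and signal through MAVS and the kinase TBK1 to IRF3 and NF-kB. Secreted type I interferon then acts through its receptor and JAK kinases on transcription factors that bind the interferon-stimulated response element and induce antiviral effectors.

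Assigned reads totalled 12015394 and 11321294 for vector and 11340614 and 10279988 for the conserved region. In each group, a marks the library with more reads and b the one with fewer. The b and a libraries differed by 2.99 times the counting noise for vector and by 1.20 times for the conserved region (chi-square per degree of freedom over the ranked genes). The same ratio was 4.98 for full-length SLNCR1 and 1.6 for delta conserved. Of 9 melanoma markers, 8 were above 10 normalized counts, and their sum was 6090 to 6490 in the 4 libraries. The defining markers PECAM1 of endothelium, CD3E of T cells and MS4A1 of B cells were at 0 in all 4. The sum over 3 endothelial markers was 15.9 to 27.3, and that over 4 leukocyte markers was 17.9 to 22.1. Longer lists of 10 markers each gave higher sums: 353 to 413 for endothelium, 2120 to 2390 for keratinocytes and 725 to 917 for fibroblasts. A list of 12 leukocyte markers summed to 170 to 236. The sum over 5 fibroblast markers was 258 and 278 with vector and 407 and 209 with the conserved region. Among them COL3A1 stood at 4.02 and 3.53 with vector and at 53.1 and 1.99 with the conserved region, so 1 conserved-region library stood apart from the other in it. The part of these markers in the results below was not tested. The mitochondrial share of reads was 0.133% and 0.141% with vector and 0.142% and 0.155% with the conserved region.

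Few transcripts passed the authors' test of the conserved region against vector. In the authors' deposited table, 6 entries were higher with an adjusted p under 0.05, which is 0.0175% of the 34347 entries with a p, and 0 were lower (0.0%). They were LINC00511, the entry that covers the SLNCR1 locus, and 5 interferon-induced genes: RSAD2, OASL, IFI44L, IFIT2 and SAMD9. At an unadjusted p under 0.05 the authors' deposited table had 249 entries higher and 211 lower. Among ranked genes the median log2 was 0.01, and 5% of genes were below -0.23 and 5% above 0.154. A total of 72 genes were at least 25% higher (0.567%) and 251 at least 20% lower (1.98%), the same ratio in either direction, of which 22 and 0 belonged to an interferon list. At least 1.5-fold, 11 were higher (0.0866%) and 20 lower (0.157%). Of the 20 ranked genes with the lowest p in the authors' deposited table, 19 were higher and 14 were in an interferon list.

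**Figure D1:**
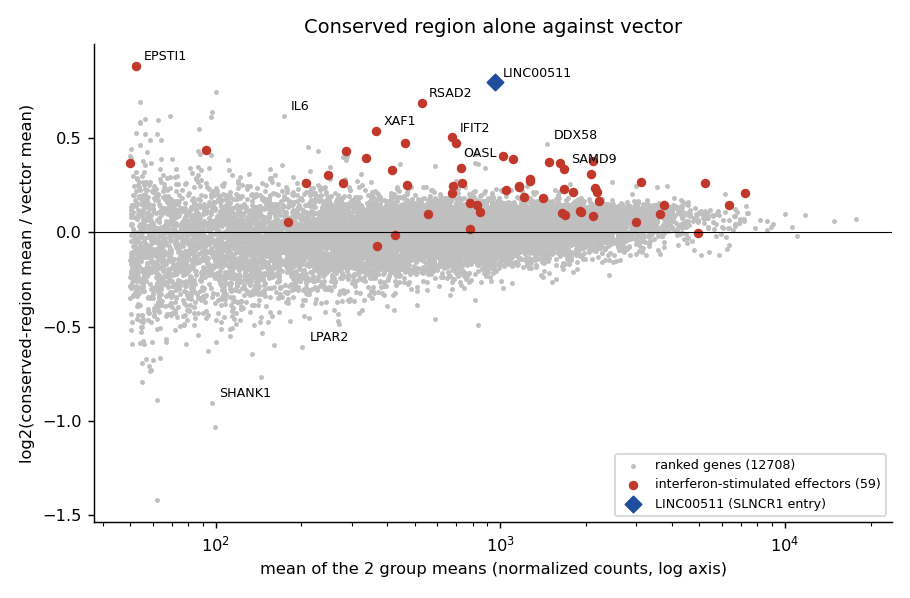
Each point is 1 of the 12708 ranked genes, with the average of its group means in normalized counts on the x axis (log scale) and the log2 ratio of the conserved region to vector on the y axis. Red points are the 59 ranked interferon-stimulated effectors, 56 of which lie above 0, and the blue diamond is LINC00511 at 0.80.

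A second test used reads of single libraries, which could be solved from the group means, with limma on log2(normalized count + 1) over all 8 libraries. It called LINC00511 higher (1 of 16058 genes, 0.00623%) and 0 genes lower (0.0%). Before adjustment, 481 genes were higher and 393 lower with a limma p under 0.05. Fitted on the 4 vector and conserved-region libraries alone, as an alternative, limma called 22 genes higher and 7 lower of 16475 (0.134% and 0.0425%). The 22 were LINC00511, 13 interferon-stimulated effectors, the sensors DDX58, DDX60 and IFIH1, the DDX60 relative DDX60L, the cytokines IL6, IL8 and CXCL10, and BIRC3. The fit over 8 libraries takes its spread also from the SLNCR1 and delta conserved libraries. Their chi-square per degree of freedom was 4.98 and 1.6, beside 2.99 for vector and 1.2 for the conserved region. Why the counts of the 2 fits differ was not tested.

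LINC00511 lies on chromosome 17 and shares its transcripts with LINC00673, for which RefSeq gives SLNCR1 as a synonym. Of the RefSeq transcripts of LINC00673, 5 of 5 matched GENCODE transcripts of LINC00511. Reads from the plasmid and from the cells' own locus can therefore both fall on this entry. How much of each insert it covers is not known, and inserts of different length give different numbers of reads per molecule, so its ratios between constructs do not compare molecules. LINC00511 stood at 623 and 617 normalized counts in the vector libraries and at 1045 and 1133 in the conserved-region libraries. The vector pair lay close together and well below the conserved-region pair. The ratio was 1.74-fold in the authors' deposited table, a log2 of 0.80 with an adjusted p of 5.89e-15. By limma the difference was 0.81 ± 0.10 on the log2 scale (SE), with an adjusted p of 0.00279. Leaving out vector library a gave a limma adjusted p of 0.105 at a log2 of 0.82, and leaving out b gave 0.255 at 0.81, so neither passed. With SLNCR1 the entry stood at 859 and 880, and with delta conserved at 1147 and 864. It was higher with the conserved region than with full-length SLNCR1 (limma log2 0.32, adjusted p = 0.0396), and the difference from delta conserved was 0.13 (adjusted p = 0.49). The neighbours of the locus on chromosome 17 had log2 values from -0.07 for SOX9 to 0.11 for FAM104A, and 0 of the 5 ranked neighbours passed either test.

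Among interferon-stimulated effectors, the genes that carry out antiviral defence, 61 were listed, all 61 were in the table and 59 were ranked. By the authors' test 5 of the 59 passed the adjusted p, all higher, and 35 were higher at an unadjusted p under 0.05 with 0 lower, beside 1.91% higher and 1.38% lower among all ranked genes. Of the 59, 56 had a log2 above 0, beside 53.8% of ranked genes. The median log2 was 0.24, beside 0.01 over all ranked genes. In 50 of the 59 both conserved-region libraries were above both vector libraries (28.4% of all ranked genes), and in 0 were both below (15.6%). The 59 genes spanned log2 values from -0.07 to 0.88. In bulk RNA, a stronger response per cell and more responding cells cannot be told apart.

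RSAD2 encodes viperin, which makes a chain-terminating nucleotide against viral polymerases. It stood at 335 and 383 normalized counts with vector and at 552 and 618 with the conserved region, so the pairs did not overlap. RSAD2 rose 1.61-fold in the authors' deposited table (adjusted p = 0.000389). OASL, a catalytically dead relative of the oligoadenylate synthetases that binds RIG-I, went from 520 and 515 to 694 and 762. That 1.39-fold rise had an adjusted p of 0.015 in the authors' deposited table. IFIT2, which belongs to a family that binds foreign RNA, had 496 and 497 normalized counts with vector and 667 and 759 with the conserved region. Its libraries were nearly equal within vector and both higher with the conserved region, a 1.42-fold rise in the authors' deposited table (adjusted p = 0.032).

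IFI44L stood at 790 and 761 normalized counts with vector and at 997 and 1083 with the conserved region, 1.33-fold in the authors' deposited table (adjusted p = 0.0215). SAMD9, a restriction factor of poxviruses, went from 1351 and 1264 to 1642 and 1704. It rose 1.26-fold in the authors' deposited table (adjusted p = 0.0351), the smallest ratio of the 6. None of the 5 passed limma over 8 libraries, where RSAD2 differed by 0.70 ± 0.16 (SE) with an adjusted p of 0.694. Without the other constructs, limma gave adjusted p values of 0.000116 for RSAD2, 0.0019 for OASL, 0.00173 for IFIT2, 0.00432 for IFI44L and 0.0126 for SAMD9.

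Other effectors had values in the same direction without passing the authors' test. EPSTI1 had the highest log2 of the whole ranking, 0.88, from 36.2 and 29.1 normalized counts to 58.4 and 63.6. At this low level its p was 0.00503 and its adjusted p 1.0 in the authors' deposited table. XAF1, which binds the caspase inhibitor XIAP, was at 264 and 266 and then at 387 and 390 (log2 0.54, adjusted p = 0.0695 in the authors' deposited table). Adjusted over the ranked genes alone, XAF1, IFIT3, SAMD9L and the sensor DDX58 passed as well, with adjusted p values of 0.0257, 0.0328, 0.0369 and 0.0247 and 10 genes in all.

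CMPK2, a mitochondrial nucleotide kinase whose gene neighbours RSAD2, had 335 and 348 normalized counts with vector and 436 and 523 with the conserved region. MX1, a GTPase that blocks viral nucleocapsids, stood at 1553 and 1736 and at 1976 and 2152. OAS2, which makes the messenger that activates RNase L, stood at 1585 and 1682 and at 2016 and 2276. In all 3 genes both conserved-region libraries were above both vector libraries, with log2 values of 0.47, 0.31 and 0.38. ISG15, a ubiquitin-like modifier, had a log2 of 0.26 and a p of 0.0939 in the authors' deposited table, from 532 and 645 to 670 and 761.

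The smallest values were those of UBA7, the activating enzyme of ISG15 (log2 -0.07), IFITM2 (-0.01) and RNF213 (-0.00). Members of near-identical families, such as IFITM2 with IFITM1 and IFITM3 or the GBP genes, may share reads, so their single values are less certain. LAMP3 and TNFSF10 were below the minimum mean, with 10.4 and 6.11 normalized counts.

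**Figure D2:**
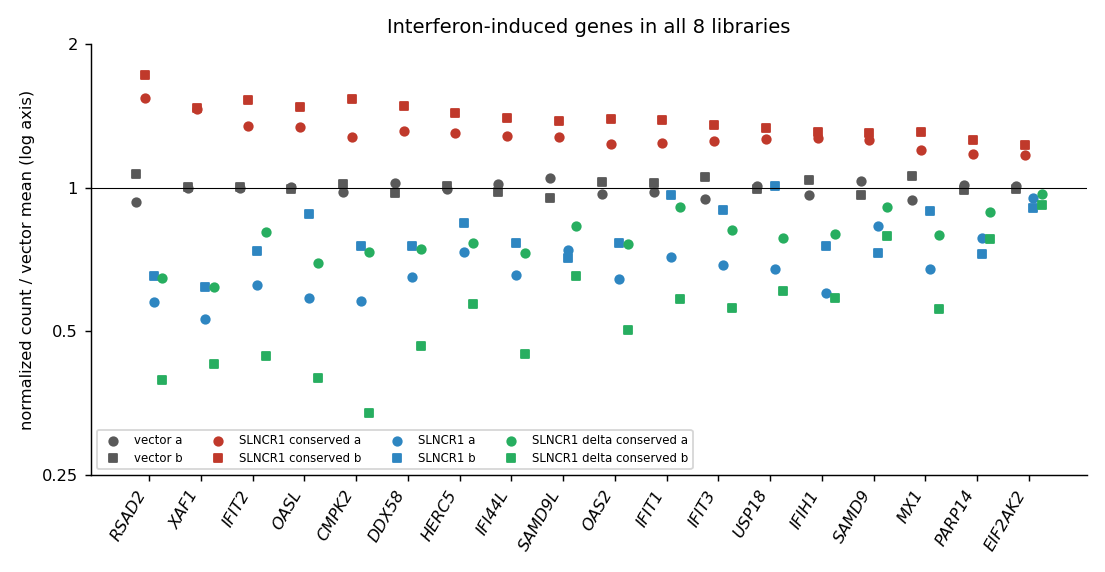
Normalized counts of 18 interferon-induced genes in all 8 libraries, each divided by the mean of the vector libraries (y axis, log scale), with circles for library a and squares for library b. The 18 genes were not chosen by a rule, and in each both conserved-region libraries (red) lie above both vector libraries (grey). Among all 59 ranked effectors that holds for 50. The SLNCR1 (blue) and delta conserved (green) libraries mostly lie at or below vector in the genes shown.

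Many of the effectors held a promoter sequence that the ranking did not use. Their list consists of interferon-stimulated genes, so a high share among them follows from membership and is not a result of these data. The core of the interferon-stimulated response element, GAAA and again GAAA with any 2 bases between them on either strand, was searched from 250 bases before to 50 bases after each gene's start in RefSeq promoters of build GRCh38.p14. This motif and the stretches shown were chosen after the values were seen. It was present in 28 of the 47 effectors with a promoter (59.6%), in 2.84% of the 9943 ranked genes with one and in 3.57% of all 35116 promoters. The log2 of the 28 effectors with a match was above 0 in each, and its median was 0.27, beside 0.21 for the 19 without a match. The highest of those without a match was RSAD2, at 0.69. Of the 6 genes past the authors' adjusted p, 4 had a promoter and 2 held the motif. The highest effectors are thus not all among the stretches shown. Of the 45 matches in effector promoters, 38 began within 150 bases before the start. The 8 stretches below are those of the effectors with an upstream match and the highest log2. They are written in the direction of transcription, with complete matches on either strand in capitals:
EPSTI1, chr13:42992262-42992311, minus strand: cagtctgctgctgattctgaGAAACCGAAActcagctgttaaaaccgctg
HERC5, chr4:88457025-88457074, plus strand: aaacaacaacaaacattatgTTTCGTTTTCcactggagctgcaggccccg
IFI44L, chr1:78620355-78620404, plus strand: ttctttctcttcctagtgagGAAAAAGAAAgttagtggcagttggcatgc
IFI27, chr14:94110621-94110670, plus strand: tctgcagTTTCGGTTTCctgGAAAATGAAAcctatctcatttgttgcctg
IFIT1, chr10:89392500-89392549, plus strand: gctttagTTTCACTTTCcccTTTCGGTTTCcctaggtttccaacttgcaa
IFIT3, chr10:89327855-89327904, plus strand: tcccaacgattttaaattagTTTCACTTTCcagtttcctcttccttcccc
RTP4, chr3:187368347-187368384, plus strand: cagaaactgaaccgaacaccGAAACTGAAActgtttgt
SAMD9, chr7:93118086-93118135, minus strand: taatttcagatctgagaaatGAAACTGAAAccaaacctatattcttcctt

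IFI27 and IFIT1 each hold a pair of matches in the stretch shown. Among ranked genes at least 25% higher, 14 of 49 with a promoter held the motif (28.6%), and among those at least 20% lower it was 2 of 160. Among the higher genes outside the interferon lists it was 2 of 31 (6.45%). An NF-kB motif, GGGA, any base and TTTCC on either strand, was present in 0.558% of all promoters searched and in 0.533% of ranked genes. It was found in 5 of the 49 higher genes (10.2%) and in 0 of the 160 lower genes. The effectors held it in 1 of 47, OAS3. Over all promoters searched, matches to both motifs overlapped in 1, which was not that of OAS3. A match describes letters in this window and does not show that a factor was bound.

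Of 12 listed RNA and DNA sensors, 10 were ranked, with a median log2 of 0.14. In 6 of the 10 both conserved-region libraries were above both vector libraries (28.4% of all ranked genes). At an unadjusted p under 0.05, 4 were higher (1.91% of all ranked genes), and 0 passed the adjusted p in the authors' deposited table. DDX58, which encodes RIG-I, stood at 1109 and 1058 normalized counts with vector and at 1424 and 1607 with the conserved region. Its log2 was 0.47, with an adjusted p of 0.0665 in the authors' deposited table. IFIH1, which encodes MDA5, went from 443 and 476 to 585 and 601 (log2 0.35). EIF2AK2, the kinase PKR that halts translation on double-stranded RNA, went from 3130 and 3089 to 3634 and 3827 (log2 0.25). In these 3 sensors the pairs did not overlap.

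The proteins that pass the signal on gave smaller values. MAVS, the mitochondrial adaptor of RIG-I and MDA5, had a log2 of -0.05, the kinase TBK1 one of 0.07 and TMEM173, the adaptor STING, one of -0.07. MB21D1, the DNA sensor cGAS, was below the minimum mean, with 0 to 2.65 normalized counts in the 4 libraries. ZBP1 also stayed below it, with a mean of 1.77.

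Of 17 interferon genes and receptor components, 13 were in the table and 8 were ranked, with a median log2 of -0.00 and 0 at an unadjusted p under 0.05. IFNB1, the interferon beta gene, had 4.02 and 2.65 normalized counts with vector and 2.65 and 7.94 with the conserved region, which overlap at the level of a few reads. The receptor chains IFNAR1 and IFNAR2 had log2 values of 0.05 and 0.01, and the kinases JAK1 and TYK2 had 0.00 and -0.02. IFNG and IFNK were at 0 in the 4 libraries.

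Among 11 ranked signalling factors of the interferon response, the median log2 was 0.09, and 3 were higher at an unadjusted p under 0.05 (1.91% of all ranked genes). The limma median of this list was 0.11, with 0.06 under scaling by library totals. USP18, the protease that restrains the receptor, stood at 346 and 341 normalized counts with vector and at 435 and 459 with the conserved region (log2 0.36). IRF1, a factor that interferon induces, went from 696 and 708 to 789 and 837 (log2 0.19). The pairs overlapped in neither gene, and neither passed the adjusted p. STAT2 had a log2 of 0.09, IRF9 one of -0.03 and IRF3 one of -0.05.

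Antigen presentation genes, many of which interferon also raises, had a median log2 of 0.09 over 20 ranked members. Both conserved-region libraries were above both vector libraries in 13, beside 28.4% of all ranked genes. Only 1 was higher at an unadjusted p under 0.05 (1.91% of all ranked genes). That was HLA-B, at 739 and 800 and then at 872 and 927 (log2 0.21, p = 0.0173 in the authors' deposited table). HLA genes are near-identical in parts and may share reads. CIITA, the driver of class II genes, had a log2 of 0.09, and NLRC5, that of class I genes, one of -0.01.

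**Figure D3:**
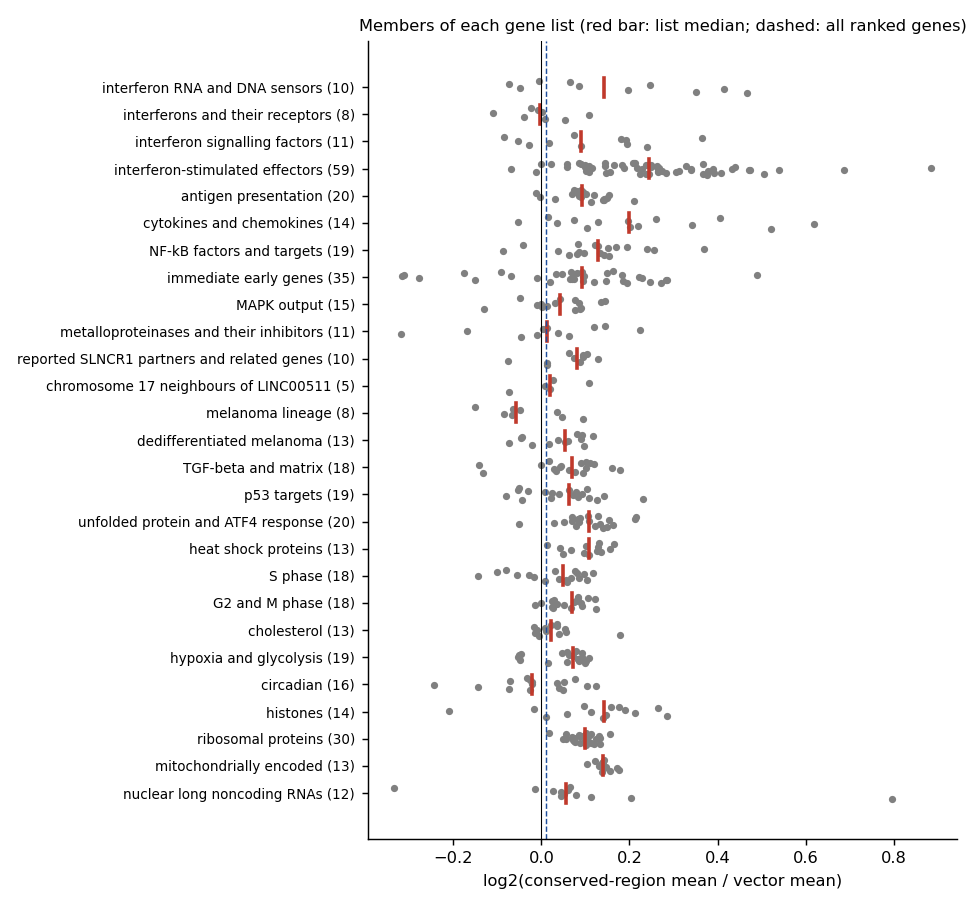
The log2 ratio of the conserved region to vector (x axis) for each ranked member of the gene lists with at least 5 ranked members, whose number is in parentheses, with a red bar at the list median and a dashed line at the median of all ranked genes. The interferon-stimulated effectors have the highest median of the lists shown, 0.24, followed by cytokines and chemokines at 0.20.

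Cytokines and chemokines came next. Of 24 listed, 14 were ranked, with a median log2 of 0.20. In 10 both conserved-region libraries were above both vector libraries (28.4% of all ranked genes). None passed the adjusted p in the authors' deposited table, and 4 were higher at an unadjusted p under 0.05 (1.91% of all ranked genes). IL6, the inflammatory interleukin, had 125 and 117 normalized counts with vector and 188 and 188 with the conserved region, a log2 of 0.62. IL8, the neutrophil chemokine CXCL8, went from 688 and 696 to 882 and 891 (log2 0.34). Both pairs lay close together within each group and apart between groups. The adjusted p values were 0.622 and 0.276 in the authors' deposited table, and 0.023 and 0.0165 by limma on the 4 libraries.

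IL32 stood at 219 and 221 and at 281 and 309 (log2 0.41), and CCL2, the monocyte chemokine, at 44.2 and 37.9 and at 55.7 and 63.6 (log2 0.52). CXCL10, the interferon-induced T cell chemokine, lay below the minimum mean and was singled out after its values were seen. Its reads numbered 10 and 5 with vector and 25 and 29 with the conserved region, a log2 of 2.01 (p = 0.000522, adjusted p = 0.747 in the authors' deposited table). IL1B and VEGFA had log2 values of -0.05 and 0.02.

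The NF-kB list, 19 ranked members, had a median log2 of 0.13, with both conserved-region libraries above both vector libraries in 16 (28.4% of all ranked genes). Its limma median was 0.14, and 0.08 without vector library a. At an unadjusted p under 0.05, 5 were higher (1.91% of all ranked genes). They included BIRC3, TNFAIP3 and TRAF1, all 3 of them targets that feed back on the pathway. BIRC3, an inhibitor of apoptosis, stood at 662 and 599 normalized counts with vector and at 786 and 862 with the conserved region (log2 0.37, adjusted p = 0.586 in the authors' deposited table). TNFAIP3, the deubiquitinase A20, went from 1431 and 1396 to 1681 and 1733 (log2 0.26). The subunits NFKB1 and RELA, which were named after their values were seen, had log2 values of 0.15 and 0.06.

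The list medians differed between libraries of the same group. Relative to the vector mean, the effectors had a median log2 of 0.193 in conserved-region library a and 0.311 in library b. The vector libraries were at -0.016 and 0.016, the SLNCR1 libraries at -0.276 and -0.129 and the delta conserved libraries at -0.127 and -0.400. Leaving out 1 of the 4 libraries, the limma median of the effectors was 0.19 to 0.31, beside 0.26 with all, and 56 to 59 of the 59 stayed above 0.

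Direct contrasts with the other constructs do not use the vector means, although the vector libraries enter the scaling and the shared estimate of spread. By limma over 8 libraries, 41 of the 59 ranked effectors were higher with the conserved region than with full-length SLNCR1, against 9.47% of all genes tested, and 0 were lower (2.06%). Against delta conserved, 44 were higher (5.79%) and 0 lower (1.11%). The median differences were 0.47 and 0.50 on the log2 scale. RSAD2 stood at 207 and 235 normalized counts with SLNCR1 and at 232 and 142 with delta conserved, below both vector libraries in each case. Its conserved-region libraries were thus higher by a log2 of 1.40 (limma adjusted p = 1.26e-05) and 1.68 (1.76e-06). DDX58, at 704 and 817 and at 808 and 505, was higher with the conserved region by 1.0 (limma adjusted p = 0.000129) and 1.24 (1.45e-05). The comparisons of each construct with vector share the vector libraries. There the effectors' median log2, from the authors' deposited tables, was 0.24 for the conserved region, -0.21 for SLNCR1 and -0.26 for delta conserved.

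The list of cytokines gave another picture. IL8 was lower with the conserved region than with SLNCR1 by a log2 of -0.47 (limma adjusted p = 0.000458) and than with delta conserved by -0.35 (0.00705). For IL6 the differences were -0.36 and -0.19 (limma adjusted p = 0.0678 and 0.411). IL32 was higher with the conserved region by 2.05 and 2.45 (limma adjusted p = 1.6e-08 and 1.74e-09), since it stood at 74.0 and 66.9 with SLNCR1 and at 55.2 and 51.4 with delta conserved. BIRC3 was higher by 1.51 and 1.41 (limma adjusted p = 4.28e-09 and 1.15e-08).

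Several sets differed strongly between the conserved region and the other constructs, and much less between the conserved region and vector. By limma, 12 of 16 ranked circadian clock genes were higher with the conserved region than with SLNCR1 (9.47% of all genes tested). Against delta conserved, 13 were higher (5.79%). The median differences were 0.93 and 0.95. Against vector their median log2 was -0.02. NR1D1, the repressor REV-ERB alpha, stood at 1615 and 1713 normalized counts with vector and at 1763 and 1853 with the conserved region, a log2 of 0.10. DBP, a clock-driven transcription factor, had 643 and 681 with vector and 536 and 595 with the conserved region, a log2 of -0.24 (p = 0.0114, adjusted p = 1.0 in the authors' deposited table). It was the only clock gene at an unadjusted p under 0.05.

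Of 14 ranked histone genes, 11 were higher by limma with the conserved region than with each other construct. The shares of all genes tested were 9.47% against SLNCR1 and 5.79% against delta conserved. The median log2 against vector was 0.14, with 0 at an unadjusted p under 0.05. In 8 of the 14 both conserved-region libraries were above both vector libraries (28.4% of all ranked genes). Polyadenylated histone transcripts are a small share of all histone mRNA, and the libraries were poly(A)-selected.

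Immediate early genes, which serum and kinase signals switch on within minutes, had a median log2 of 0.09 over 35 ranked members. Both conserved-region libraries were above both vector libraries in 15 (28.4% of all ranked genes) and below both in 5 (15.6% of all ranked genes). EGR1, a zinc finger factor, stood at 3206 and 3562 normalized counts with vector and at 3753 and 4030 with the conserved region, a log2 of 0.19 (p = 0.032, adjusted p = 1.0 in the authors' deposited table). It was higher than with SLNCR1 by 1.40 and than with delta conserved by 1.39 (limma adjusted p = 5.88e-10 and 9.19e-10). NR4A3, an orphan nuclear receptor, had the highest log2 of the list, 0.49, from 39.4 and 46.8 to 62.8 and 59.6. Its relative NR4A2 had one of -0.32, from 146 and 140 to 118 and 115, so members of this family lay on both sides of vector.

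Among the genes tied to SLNCR1 in melanoma, MMP9, the gelatinase, was below the minimum mean, with 10 and 11 reads in the vector libraries and 23 and 14 in the conserved-region libraries. That is 8.04 and 9.70 against 20.3 and 13.9 normalized counts, which do not overlap. The ratio was 1.91-fold in the authors' deposited table, a log2 of 0.93 with a p of 0.119 and an adjusted p of 1.0, so a difference was not detectable at these few reads. Of 23 metalloproteinases and inhibitors, 11 were ranked, with a median log2 of 0.01 and values from -0.32 for MMP15 to 0.22 for MMP19. MMP19 was the only one at an unadjusted p under 0.05 (0.0365 in the authors' deposited table).

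POU4F1 had 85.2 and 97.0 normalized counts with vector and 79.6 and 95.3 with the conserved region, and SRA1, a steroid receptor RNA activator, had 803 and 814 and then 778 and 873. Both overlapped. CDKN1A, the cell cycle inhibitor p21, had a log2 of 0.06. The list of reported partners and related genes had a median of 0.08 over 10 ranked members, and 0 were at an unadjusted p under 0.05.

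Melanoma lineage genes had a median log2 of -0.06 over 8 ranked members. MITF, the master factor of melanocytes, stood at 729 and 693 normalized counts with vector and at 786 and 750 with the conserved region (log2 0.09, p = 0.303 in the authors' deposited table). SOX10, its upstream factor, had a log2 of 0.05. Genes of dedifferentiated melanoma, among them AXL and NGFR, had a median of 0.05 over 13 members, and 0 were at an unadjusted p under 0.05.

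The remaining pathway lists had medians between 0.02 and 0.14. The 19 p53 targets had a median log2 of 0.06, led by PMAIP1, the apoptosis factor NOXA, at 791 and 786 and then at 930 and 942 (log2 0.23, p = 0.00812 in the authors' deposited table). The 20 genes of the unfolded protein and ATF4 response had a median of 0.11, with ASNS, asparagine synthetase, and the cystine transporter SLC7A11 at 0.21 each. All 13 heat shock genes, all 30 ribosomal protein genes and all 13 mitochondrially encoded genes were above 0, beside 53.8% of ranked genes. Their medians were 0.11, 0.10 and 0.14. At an unadjusted p under 0.05 in the authors' deposited table, 3 unfolded protein and 3 heat shock genes were higher (1.91% of all ranked genes). For ribosomal and mitochondrially encoded genes the count was 0. None of the genes in these lists passed the adjusted p. Both conserved-region libraries were above both vector libraries in 13 of the 20 unfolded protein genes and 10 of the 13 mitochondrially encoded genes. The same held for 11 of the 18 G2 and M phase genes, 7 of the 13 heat shock genes and 13 of the 30 ribosomal genes. Among all ranked genes it held for 28.4%. With library totals in place of median-of-ratios scaling, the limma median of the ribosomal genes was 0.07 and that of all ranked genes -0.015. Cholesterol synthesis, S phase, and G2 and M phase genes had medians of 0.02, 0.05 and 0.07.

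The 15 highest genes of the ranking were apart from vector in every library pair, as their choice by the ratio favours. Their means ran from 52.5 to 959 normalized counts, and 10 were under 100. Besides LINC00511, EPSTI1, RSAD2, IL6 and XAF1 they were TNFRSF9, SLC46A3, ITGAM, EID3, GAREM, EVI2A, RND1, LSAMP, SGCZ and HSH2D. TNFRSF9, the costimulatory receptor 4-1BB and an NF-kB target, stood at 71.6 and 60.9 normalized counts with vector and at 116 and 108 with the conserved region. Its log2 was 0.74 (p = 0.00105, adjusted p = 1.0 in the authors' deposited table). ITGAM, the integrin chain CD11b of myeloid cells, stood at 74.8 and 60 and at 99.1 and 113 (log2 0.64).

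Several of these separated the constructs further. ITGAM had 8.0 and 6.58 normalized counts with SLNCR1 and 5.52 and 15 with delta conserved, so the conserved-region libraries were higher by a log2 of 3.69 (limma adjusted p = 1.5e-06) and 3.39 (4.15e-06). ITGAM is also a leukocyte marker. Of 12 such markers, ITGAM included, the summed normalized counts were 204 and 170 with vector and 211 and 236 with the conserved region. The defining markers CD3E and MS4A1 were at 0, and PTPRC was at 0 to 0.882. TNFRSF9 was higher than with SLNCR1 by 1.46 and than with delta conserved by 1.05 (limma adjusted p = 8.1e-05 and 0.00234). EVI2A and RND1 were higher than with both other constructs as well. SLC46A3, GAREM and SGCZ gave no limma call against either.

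**Figure D4:**
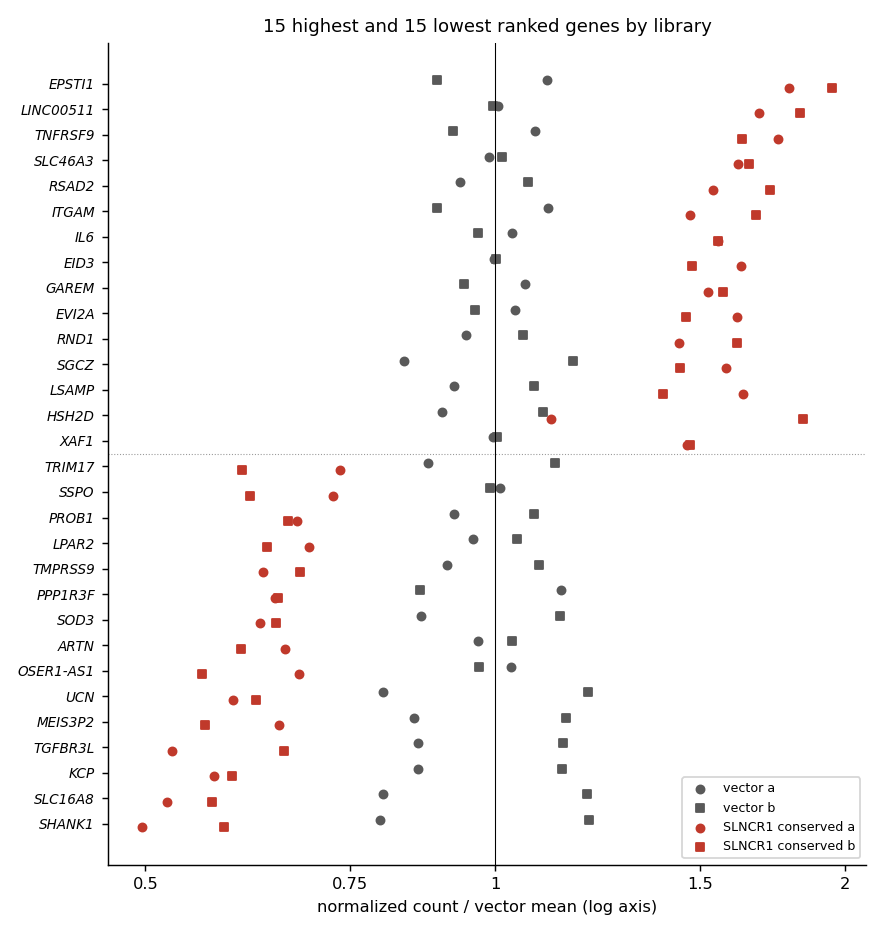
Normalized counts of the 15 highest and 15 lowest ranked genes with a reference symbol, each divided by the vector mean (x axis, log scale), with grey for vector, red for the conserved region, circles for library a and squares for library b. The groups do not overlap in any of the 30 genes, which the ranking by ratio favours. Vector library b is the highest library in 12 of the 15 lowest genes and the lowest in 7 of the 15 highest.

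On the lower side no gene passed the authors' adjusted p, the smallest being 0.451 for LPAR2. LPAR2, a receptor of lysophosphatidic acid, stood at 206 and 225 normalized counts with vector and at 149 and 137 with the conserved region (log2 -0.60, p = 0.000237 in the authors' deposited table). SHANK1, a synaptic scaffold protein, had the lowest log2 among genes with a reference symbol, -0.90, from 89.3 and 135 to 55.7 and 65.5. SLC16A8, a lactate transporter, had one of -0.89, and KCP, a BMP regulator, one of -0.79. The remaining lowest genes were TGFBR3L, MEIS3P2, UCN (urocortin), OSER1-AS1, ARTN (artemin), SOD3 (extracellular superoxide dismutase), PPP1R3F, TMPRSS9, PROB1, SSPO and TRIM17, between -0.76 and -0.59. The last places also held 4 entries without a reference symbol, which were passed over, among them RP11-482M8.1, the last of the ranking, at -1.42. The libraries do not mark strand, so the reads of antisense entries such as OSER1-AS1 cannot be told apart from those of genes they overlap.

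Limma on the 4 libraries called 7 genes lower: LPAR2, TGFBR3L, GLTSCR1, FER1L4, ZNF469, MEX3D and RP11-482M8.1. FER1L4, a pseudogene transcript, stood at 420 and 431 with vector and at 345 and 303 with the conserved region, a log2 of -0.41 (adjusted p = 0.0335 by limma on the 4 libraries, 0.823 in the authors' deposited table). Of these 7, GLTSCR1, ZNF469 and MEX3D lay outside the naming rule and were chosen after their values were seen.

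A trend with base composition ran through the ranking and touched the lower genes most. Genes at least 20% lower had a median GC content of 59.5% in their longest transcript, beside 48.1% over ranked genes, 43.8% over genes at least 25% higher and 47.0% over the effectors. Genes are not independent replicates. Over 12169 of them, the Spearman correlation between GC content and the log2 of the conserved region against vector was -0.47. Between the vector libraries (b over a) it was 0.60, and between the conserved-region libraries it was 0.12. Without vector library b the correlation was -0.07, and without library a -0.68. In 156 of the 251 genes at least 20% lower, vector library b was the highest of the 4. In 41 of the 72 genes at least 25% higher, it was the lowest. Choice by the ratio favours a vector library at these extremes. A mean under 200 normalized counts was found in 213 of the 251 and in 42 of the 72. The median mean was 89.8 and 98.7, beside 601 over ranked genes. The part of base composition in the values of single genes was not tested beyond the correction below.

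**Figure D5:**
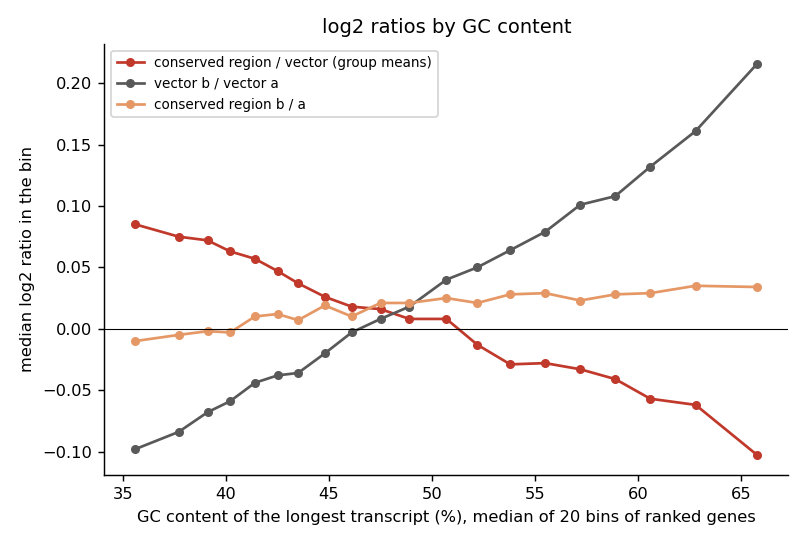
Median log2 ratio (y axis) in 20 bins of ranked genes by the GC content of their longest transcript (x axis, %), for the conserved region against vector (red), vector library b against a (grey) and conserved-region library b against a (orange). The red line falls from 0.085 to -0.103 while the grey line climbs from -0.098 to 0.216.

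With the median GC trend removed from each library, an alternative added after the trend was seen, the correlation was -0.01. The effectors' limma median was then 0.23, beside 0.26, and 58 of 59 remained above 0 as before. By limma over 8 libraries SAMD9 went from 0.36 to 0.27, IFI44L from 0.42 to 0.34 and IFIT2 from 0.52 to 0.47. RSAD2 went from 0.70 to 0.66, and OASL stayed at 0.49. The 15 lowest genes remained below 0 in all 15 cases, with a median limma log2 of -0.55, beside -0.65 uncorrected and -0.53 without vector library b. They were chosen by their ratio in these libraries, and the bin medians of the trend reached only -0.103. Staying below 0 could therefore hardly have come out otherwise. With this correction limma over 8 libraries called the same single gene, LINC00511, with an adjusted p of 0.00692. On the 4 libraries alone the corrected fit called 59 ranked genes higher, 24 of them effectors, and 13 lower.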

How the data were processed

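Poly(A)-selected RNA of A375 cells was sequenced from NEBNext Ultra libraries, per the labels' protocols, a kit that does not mark strand. STAR, featureCounts and DESeq were used with build hg19, per the submitters' processing notes. Their versions, settings and gene annotation: not given in the sources used here. Each signal value in a deposited table is a group mean of reads divided by size factors, set by the authors for each table on its own. The deposited fold change is the ratio of those means. Raw and adjusted p-values were likewise deposited by the authors. Log2 ratios were computed here from the group means, since the authors' log2 column contains text cells. Dates stood in place of 28 identifiers, and 33497 matched a reference symbol.

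Each group mean is a sum of whole multiples of a step per library, so the whole reads of each library could be solved. Exactly 1 pair of read numbers fitted in 100.0% of expressed genes for vector and SLNCR1, 99.981% for the conserved region (6 genes had several, and the most even was taken) and 99.997% for delta conserved. Which library is which replicate is unknown. The reads were scaled by median-of-ratios and tested with limma 3.58.1 (R 4.3.3) on log2(normalized count + 1), with a variance trend and Benjamini-Hochberg adjustment, on the 16058 genes averaging 10 or more across the 8 libraries. Changes of low genes are understated on this scale. Per-library values are on the scale of this normalization, which differs from that of the deposited means. On simulated counts for 16058 genes with known changes in the conserved-region comparison, limma recovered 64% of genes changed 1.25-fold and 94% changed 1.5-fold, with 7 false calls among 186. The simulation used 1 dispersion for all genes and no GC trend between libraries, so real recovery can be far lower. In the real fit RSAD2, 1.61-fold higher in the authors' deposited table, had a limma adjusted p of 0.694. Plots came from matplotlib 3.10.9 under Python 3.11.15 (numpy 2.4.6, pandas 2.3.3).

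The comparison, the 31 gene lists and the tests were chosen with earlier results of these data known. Named genes are LINC00511, genes past either test, the 15 highest and lowest of the ranking, the 10 lowest p each way, all members of the interferon lists, the 3 highest and lowest ranked members of other lists, and MMP9, POU4F1, EGR1, CDKN1A, SRA1 and MITF, and the genes next to the minimum mean. CXCL10, DDX60L, NFKB1, RELA, NGFR and genes that complete counts were added after their values were seen. Single values of 1 member of an interferon list are not reported here. Alternatives were other scalings, pseudocounts, filters and thresholds, leaving out each library, the 4 libraries alone and, added later, a GC correction in 40 bins.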

Additional observations from a re-analysis of the deposited data

How the results depend on the processing

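The count of 6 genes higher in the authors' deposited table became 10 when adjusted over genes with a mean of at least 50 or at least 10, 10 at an adjusted p under 0.1, 2 under 0.01 and 1 by limma over 8 libraries. The count of 0 lower was the same in each. The limma count of 1 higher became 0 with no filter beyond 1 read and 0 without the variance trend, and the other scalings, pseudocounts and the mean of 50 left it at 1. Fitting the 4 libraries alone gave 22 higher and 7 lower, and 60 higher and 13 lower with the GC correction added. Leaving out 1 library gave 0 to 2 higher (0 without vector a or b, 2 without SLNCR1 conserved b), with the left-over sample assumed to vary like the other groups, and 0 lower throughout. Counts past a fold depended on the minimum mean: for genes at least 25% higher or 20% lower it gave 512 higher and 1119 lower with a mean of 10, and 30 and 38 with 200. By limma log2 those counts were 78 and 203, but 238 and 382 without vector a, 141 and 255 without vector b, 137 and 348 without SLNCR1 conserved a and 142 and 239 without SLNCR1 conserved b. The limma median of the sensors, 0.16, was 0.24 without vector a, 0.12 under scaling by library totals and 0.12 with the GC correction. No paired analysis was possible because the group means carry no replicate numbers. The authors' test was not rerun without single libraries.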
